A study of Homo sapiens with 12 samples.

Results

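The genes described here are 42 protein-coding genes of the amino acid response: transcription factors led by ATF4, feedback and effector genes, enzymes that make serine, asparagine and proline, amino acid transporters, and 17 cytosolic aminoacyl-tRNA synthetases. They were taken by gene symbol, and each of the 42 symbols was found as 1 row among the 62656 genes of the deposited count table. The list was drawn up with results of the same libraries already known, so its counts are a description of these genes and no independent evidence for a response. The study sequenced RNA of 2 established lines of human colorectal cancer, HCT116 and LoVo, as 12 libraries, 3 in each of 4 groups. The groups were HCT116 control cells, HCT116 cells labelled SLERT OE (overexpression), LoVo control cells and LoVo cells labelled SLERT KD (knockdown), where SLERT is a snoRNA-ended non-coding RNA processed from introns of TBRG4. The HCT116 control columns are headed as vector, and those of LoVo as ShNC for the control and Sh for the knockdown. No label gives the vector, the number of hairpins or whether a line is a clone. None says that libraries come from separate cultures, so p-values reflect the spread between these libraries, which may be technical.

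As background, cells that run short of an amino acid hold uncharged tRNA, which activates the kinase GCN2. GCN2 and the related kinases PERK, PKR and HRI phosphorylate the initiation factor eIF2, which lowers translation of most messages but raises that of ATF4. ATF4, paired with C/EBP proteins, then binds the C/EBP-ATF response element of genes for amino acid synthesis, uptake and tRNA charging. A readout of messenger RNA shows neither eIF2 phosphorylation nor ATF4 protein.

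Total counts ran from 14.46 to 17.23 M per library. At the locus, SNORA5C had 16 counts over the HCT116 controls and 1926 over the OE libraries, but 37 over the LoVo controls and 37 over the libraries labelled SLERT KD, so the counts show no fall of SLERT in LoVo and directions there are by label. The deposited protocol text speaks of retinas, whereas the colorectal epithelial markers were all above 0 in each group, with summed levels from 3497 to 7535 CPM (normalised counts per 1000000 counts). Retinal markers summed to 11.3 to 14.4 CPM in HCT116 and 4.86 to 8.70 CPM in LoVo, where CRX and RCVRN were at 0 and 1 of the 3 tested, BEST1, was called higher with KD (log2 0.92). Between LoVo control and KD, summed epithelial markers stood at 7063 to 7535 and 6228 to 6749 CPM, most of it KRT8 (4595 to 4980 and 3617 to 4174 CPM). Of the 9, 5 were called lower (KRT8, KRT18, KRT20, CDX2 and VIL1) and 3 higher (EPCAM, LGALS4 and CDH17, the last at 258 to 273 CPM in the controls and 429.9 to 481 CPM with KD). Leukocyte markers summed to 5.13 to 6.71 and 3.35 to 4.30 CPM (CD3E at 0 in both) and hepatocyte markers to 4.73 to 5.56 and 1.75 to 2.16 CPM (TTR and SERPINA1 at 0 with KD). Fibroblast and endothelial markers summed to 1.76 to 3.13 CPM in LoVo and 72.8 to 88.0 CPM in HCT116, most of the latter COL1A1 (69.1 to 84.6 CPM). The part of these shifts in the results below was not tested. In bulk RNA, fewer cells of a type and less RNA per cell cannot be told apart.

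The element through which ATF4 acts is shown here as a sequence feature of part of the members. Its core was searched as TGATGNAA on both strands of RefSeq promoters (GRCh38.p14, 250 bases before to 50 after the start), which were given for 35 of the 42 members. It stood in 10 of the 35 (28.57%), against 1270 of all 35116 promoters (3.62%). By role these were 6 of 14 synthetases, 2 of 5 transporters, 1 of 5 synthesis enzymes, 1 of 6 effectors and 0 of 5 transcription factors. Members were counted with 1 promoter per symbol, but the background with every promoter of full length, so the shares are not strictly alike. The members were chosen as genes of the ATF4 response, so their higher share is no independent finding. The 30-base windows of 9 of the matches follow, written 5′ to 3′ on the strand on which the core reads, with the matched 8 bases in capitals.
ASNS: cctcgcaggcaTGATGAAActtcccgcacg
CHAC1: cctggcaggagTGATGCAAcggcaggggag
SLC7A1: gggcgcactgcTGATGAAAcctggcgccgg
AARS1: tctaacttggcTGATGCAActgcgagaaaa
CARS1: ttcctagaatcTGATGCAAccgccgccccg
IARS1: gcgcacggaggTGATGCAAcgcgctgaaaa
MARS1: gaatccctcgcTGATGCAAccggaaccggc
NARS1: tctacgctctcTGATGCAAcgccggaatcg
TARS1: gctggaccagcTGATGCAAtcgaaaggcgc

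The window of ASNS lies at chr7:97872458-97872487 on the minus strand, with its match 68 bases before the start, and that of CHAC1 at chr15:40953251-40953280 on the minus strand, 209 bases before the start. Those of SLC7A1 (chr13:29595663-29595692, minus strand), NARS1 (chr18:57621804-57621833, minus strand) and TARS1 (chr5:33440956-33440985, minus strand) lie 8, 15 and 3 bases after the start. AARS1 (chr16:70289675-70289704, plus strand) and IARS1 (chr9:92293692-92293721, plus strand) match 187 and 13 bases before it, and CARS1 (chr11:3057407-3057436, plus strand) and MARS1 (chr12:57488053-57488082, minus strand) have matches that span it. The cores of ASNS and SLC7A1 read TGATGAAA, and the other 7 read TGATGCAA. SLC3A2 holds the remaining match, 38 bases after its start. A match is a description of letters in this window and not a bound site.

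In LoVo with KD, 19 of the 41 members tested rose and 0 fell, by 0.16 to 0.64 on the log2 scale. Among all 16253 genes tested, 12.6% were called higher and 13.7% lower (26.3% either way). The calls are edgeR quasi-likelihood tests at a Benjamini-Hochberg adjusted p under 0.05 over all genes. At an unadjusted p under 0.05, 21 members were higher and 2 lower, and DESeq2 also called 19 higher and 0 lower. The share of all genes at that unadjusted threshold was not taken, here or below, so such counts have no background beside them. The median log2 fold change was 0.13 over the 41 members and 0.00 over all genes. NUPR1, a stress-induced chromatin protein, had at most 4 counts in any library and did not pass the filter on low counts. Levels below are CPM on a scale shared by the 12 libraries, and fold changes with their standard errors (SE) come from the fit. Where groups of a called gene are said not to overlap, this describes the libraries that gave the call and is no further support for it. The share of all genes with groups that do not overlap was not taken.

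**Figure D1:**
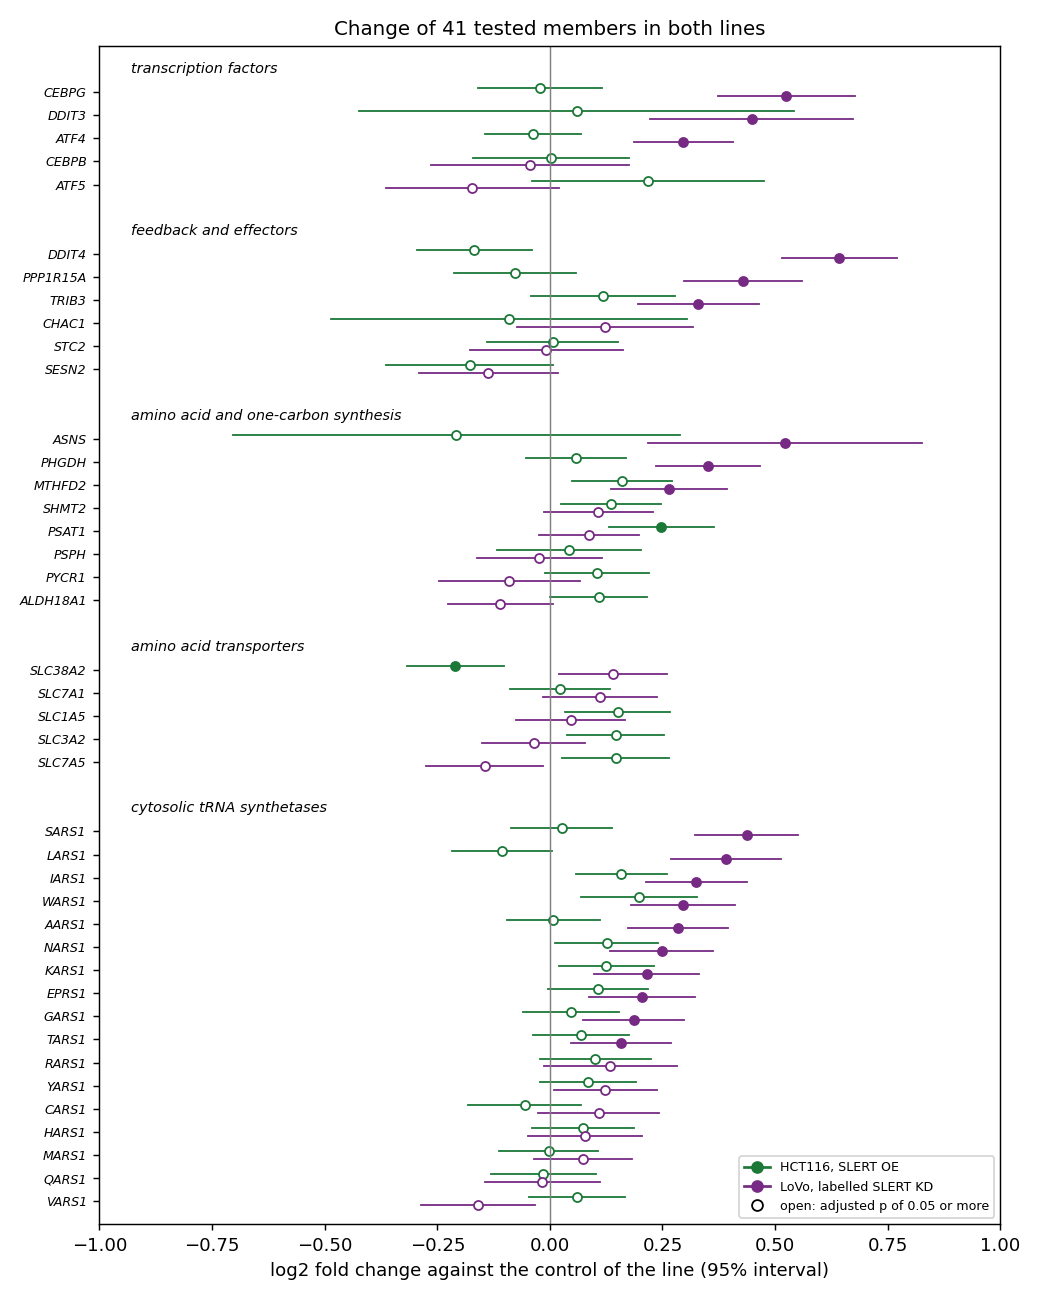
Log2 fold change with its 95% interval for the 41 members tested, grouped by role, in HCT116 (OE minus control) and LoVo (KD minus control); filled points passed the test. In LoVo 19 points are filled and all lie above 0, with DDIT4 highest at 0.64, and in HCT116 PSAT1 (0.25) and SLC38A2 (-0.21) are filled.

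Among the transcription factors, 3 of 5 tested rose. ATF4 (ENSG00000128272), the factor that names the response, stood at 589, 584 and 614 CPM in the LoVo controls and 765, 709 and 730.3 CPM with KD. Every KD library was above every control, and the rise was 1.23-fold (log2 0.30, SE 0.053, edgeR adjusted p = 0.000247). CEBPG, a C/EBP protein that pairs with ATF4, had the largest rise of the 5, from 73.9, 87.3 and 84.1 to 109, 128 and 117 CPM (log2 0.52, SE 0.074, adjusted p = 1.38e-05). DDIT3, which encodes the stress factor CHOP, was a low-abundance message at 13.6, 15.0 and 15.3 CPM in the controls and 20.3, 21.8 and 17.8 CPM with KD (log2 0.45, SE 0.11, adjusted p = 0.00381). Neither gene's groups overlapped. MARS1, a far more abundant message, overlaps 27.2% of the exonic length of DDIT3 on the opposite strand, and the strand setting of the counting is not known here, which leaves DDIT3 uncertain to that extent, as does NUP62 for 21.2% of ATF5. The intervals of ATF5, an ATF4 target and relative (29.3 ± 2.82 and 26.1 ± 1.67 CPM, SD, n = 3; log2 95% interval -0.36 to 0.02), and of CEBPB, another C/EBP partner (35.8 ± 3.36 and 34.9 ± 6.54 CPM; -0.26 to 0.18), both held 0.

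Of the 6 feedback and effector genes, 3 rose. DDIT4, an inhibitor of the growth kinase mTORC1, rose most of all 41 members, from 197, 217 and 223 CPM to 352, 319.8 and 328 CPM. Its groups were far apart, with a 1.56-fold rise (log2 0.64, SE 0.062, adjusted p = 4.66e-08). PPP1R15A (GADD34), the phosphatase subunit that reverses eIF2 phosphorylation, stood at 155, 154 and 151 CPM in the controls and 218, 188 and 217 CPM with KD (log2 0.43, SE 0.063, adjusted p = 2.7e-05). TRIB3, a pseudokinase that restrains ATF4 and CHOP, stood at 209, 192 and 200.3 CPM and at 275, 230.0 and 254 CPM (log2 0.33, SE 0.065, adjusted p = 0.000633). KD 2 was the lowest of the 3 KD libraries for each of these genes and yet above every control. CHAC1, which degrades glutathione, overlapped between groups (32.0, 30.1 and 32.6 against 39.3, 29.5 and 35.1 CPM; log2 0.12, 95% interval -0.07 to 0.32). SESN2, another inhibitor of mTORC1, had a log2 fold change of -0.14 (95% interval -0.29 to 0.02), and STC2, a secreted glycoprotein, of -0.01 (SE 0.082). An antisense gene overlaps 41.2% of the exonic length of DDIT4, and its reads could be counted there if strand was not used.

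Of the 8 synthesis genes, 3 rose, each in a different pathway. PHGDH, which commits glycolytic carbon to serine, stood at 485, 492 and 505 CPM in the controls and 665, 592 and 644 CPM with KD (log2 0.35, SE 0.056, adjusted p = 6.21e-05). MTHFD2, a mitochondrial folate enzyme, went from 199, 222 and 222 to 246, 274 and 256 CPM (log2 0.26, SE 0.063, adjusted p = 0.00304). ASNS, asparagine synthetase and a textbook ATF4 target, had low counts in LoVo, at 5.82, 7.03 and 5.86 CPM in the controls and 8.12, 9.31 and 9.55 CPM with KD (log2 0.52, SE 0.15, edgeR adjusted p = 0.0109). The groups of PHGDH, MTHFD2 and ASNS did not overlap. The remaining steps of the serine path did not pass the test: PSAT1, the aminotransferase after PHGDH, had a log2 fold change of 0.09 (95% interval -0.02 to 0.20), PSPH, the phosphatase that completes serine, of -0.02, and SHMT2, which turns serine into glycine, of 0.11. The same held for the proline enzymes ALDH18A1 (-0.11) and PYCR1 (-0.09). The call of ASNS was lost without control 1 (log2 0.47), control 3 (0.48) or KD 3 (0.48). A read-through RNA gene, CZ1P-ASNS, covers 99.4% of the span of ASNS on the RefSeq annotation and 4 pseudogenes carry its name, so its reads may be shared. Pseudogenes named for ATF4 (4), PSAT1 (4), MTHFD2 (7) and KARS1 (3) could likewise share reads with them.

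None of the 5 transporters passed the test, by edgeR or by DESeq2, and at an unadjusted p under 0.05 there was 1 higher and 1 lower. SLC7A5, the large neutral amino acid exchanger, stood at 1227, 1103 and 1183 CPM in the controls and 1151, 944 and 1099.9 CPM with KD (log2 -0.14, SE 0.063, adjusted p = 0.0939). Its partner chain SLC3A2 had a log2 fold change of -0.04 (95% interval -0.15 to 0.08), the glutamine carriers SLC1A5 and SLC38A2 of 0.05 and 0.14, and SLC7A1, which carries arginine and lysine, of 0.11. Without KD 1, SLC7A5 passed the test as lower (log2 -0.20, adjusted p = 0.0227) and SLC38A2 as higher (0.18, adjusted p = 0.0257), and without KD 2 SLC7A1 passed as higher (0.16, adjusted p = 0.0365).

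The synthetases, which load each tRNA with its amino acid, supplied 10 of the 19 calls, with 10 of 17 higher and 15 of 17 above 0. SARS1, the seryl enzyme, moved most, from 252, 262 and 261 to 357, 350.2 and 346 CPM (log2 0.44, SE 0.055, adjusted p = 3.08e-06). LARS1, the leucyl enzyme and a leucine sensor for mTORC1, stood at 196, 189 and 197 CPM in the controls and 242, 269 and 256 CPM with KD (log2 0.39, SE 0.059, adjusted p = 3.75e-05). IARS1, the isoleucyl enzyme, stood at 423, 425 and 399 CPM and at 518, 516 and 535 CPM (log2 0.33, SE 0.054, adjusted p = 0.000104). Each of these groups was tight, and no KD library fell among the controls. WARS1, the tryptophanyl enzyme, which interferon also induces, went from 232, 223 and 229 to 286, 277 and 281 CPM (log2 0.30, adjusted p = 0.000393). AARS1, the alanyl enzyme, went from 587, 562 and 590.4 to 728, 678 and 722 CPM (log2 0.28, adjusted p = 0.000396). NARS1, the asparaginyl enzyme, went from 285, 293 and 285 to 337, 354 and 338 CPM (log2 0.25, adjusted p = 0.00185). These 3 also kept their groups apart.

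The other 4 synthetases that rose did so by less. KARS1, the lysyl enzyme, stood at 192, 191 and 184 CPM in the controls and 219, 219 and 221 CPM with KD (log2 0.21, adjusted p = 0.00689). EPRS1, which loads both glutamate and proline, stood at 297, 294 and 274 CPM and at 321, 343 and 338 CPM (log2 0.20, adjusted p = 0.0105). GARS1, the glycyl enzyme, stood at 393, 383 and 371 CPM and at 431, 439.6 and 439 CPM (log2 0.19, adjusted p = 0.0132). Like these 3, TARS1, the threonyl enzyme, kept its groups apart, at 370.5, 364 and 379 CPM against 409.9, 422 and 416 CPM (log2 0.16, adjusted p = 0.0334). These calls, more than the log2 fold changes, depended on single libraries. Without control 3 all 4 were lost (log2 0.20, 0.17, 0.17 and 0.17 for KARS1, EPRS1, GARS1 and TARS1) and the synthetases called fell from 10 to 6. Over all genes, the calls in LoVo fell from 4278 to 2769 in that setting. Without KD 3 EPRS1 (0.20), GARS1 (0.19) and TARS1 (0.16) were lost, and TARS1 was also lost without control 1 (0.16) or control 2 (0.14).

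The 7 synthetases that did not pass had log2 fold changes of 0.13 for RARS1 (arginyl), 0.12 for YARS1 (tyrosyl), 0.11 for CARS1 (cysteinyl), 0.08 for HARS1 (histidyl), 0.07 for MARS1 (methionyl), -0.02 for QARS1 (glutaminyl) and -0.16 for VARS1 (valyl). VARS1 had the lowest value of the 17, at 300.5, 279.7 and 301 CPM in the controls and 281, 244 and 268 CPM with KD (adjusted p = 0.0579). Without KD 1 it passed as lower (log2 -0.21, adjusted p = 0.0194), and RARS1 as higher (0.20, adjusted p = 0.0289). Summed over the 17 genes on the deposited per-length scale (FPKM), the synthetases stood at 761, 748 and 748 in the LoVo controls and 834, 836 and 838 with KD, without overlap. Of the 7 enzymes that sit in the multi-synthetase complex (EPRS1, IARS1, KARS1, LARS1, MARS1, QARS1 and RARS1), 4 rose with a median log2 fold change of 0.20, and of the 10 others 6 rose with a median of 0.17. By the promoter core, 5 of the 10 members with it rose (median 0.14), 13 of the 25 without it (0.19) and 1 of the 6 tested whose promoter was not in the table.

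**Figure D2:**
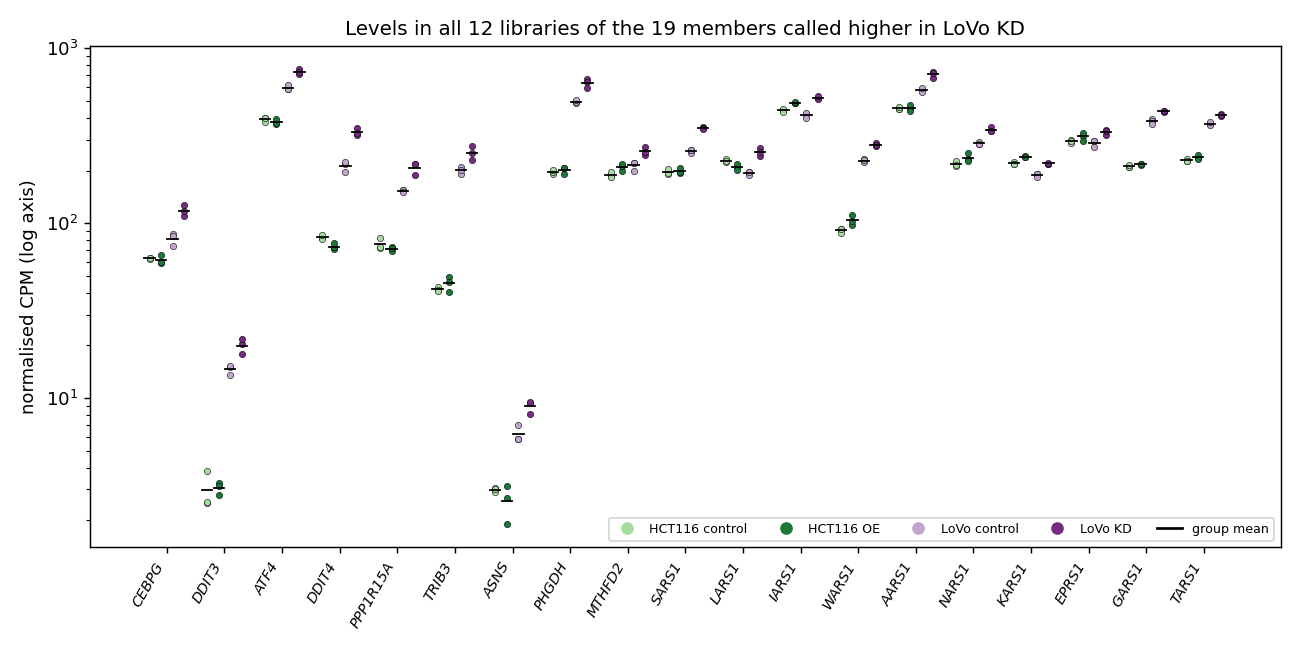
Level in each of the 12 libraries (CPM on a log axis) of the 19 members called in LoVo, 1 point per library, by group. For each of the 19 the 3 LoVo KD points lie above the 3 LoVo control points (DDIT4 at 319.8 to 352 against 197 to 223 CPM). The 19 were chosen by the test on these same libraries, so this separation is no further support.

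In HCT116 with OE, 2 of the 41 members tested passed the test, 1 in each direction, where 0.914% of all 15980 genes tested did (0.507% higher and 0.407% lower). PSAT1 rose from 115, 111 and 113 to 132, 138 and 131 CPM, with no overlap (log2 0.25, SE 0.057, edgeR adjusted p = 0.0285). SLC38A2, the glutamine carrier SNAT2, fell from 887, 961 and 879.9 to 757, 826 and 761 CPM, also with no overlap (log2 -0.21, SE 0.052, adjusted p = 0.0477). The call of PSAT1 was lost without control 1 (log2 0.26), control 2 (0.24), OE 2 (0.22) or OE 3 (0.27), and that of SLC38A2 without control 1 (-0.23), control 2 (-0.17), OE 1 (-0.19), OE 2 (-0.25) or OE 3 (-0.19). Apart from the retinal list, summed markers did not overlap between the HCT116 groups either, although 0 of the markers tested were called there in any list. Epithelial markers stood at 3497 to 3616 CPM in the controls and 3669 to 3958 CPM with OE, and fibroblast and endothelial markers at 81.1 to 88.0 and 72.8 to 78.7 CPM. Leukocyte markers stood at 8.82 to 9.58 and 7.25 to 8.46 CPM (CD3E at 0 with OE), and hepatocyte markers at 8.08 to 9.40 and 7.19 to 7.32 CPM (TTR at 0 in both, APOA1 with OE). The part of these shifts in the HCT116 results was not tested.

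ATF4 itself stood at 399.9, 379 and 399 CPM in the HCT116 controls and 370.3, 375 and 395 CPM with OE (log2 -0.04, 95% interval -0.14 to 0.07). Of the 6 effectors, 2 had a log2 fold change above 0 and 0 were called, with a median of -0.08. DDIT4 stood at -0.17 (95% interval -0.30 to -0.04, edgeR adjusted p = 0.19), SESN2 at -0.18, CHAC1 at -0.09 and PPP1R15A at -0.08. STC2 stood at 0.006 and TRIB3 at 0.12. Most synthesis genes (7 of 8) and synthetases (13 of 17) had a log2 fold change above 0, with medians of 0.11 and 0.07 that compare with 0.00 over all genes. WARS1 (0.20, adjusted p = 0.122) and IARS1 (0.16, adjusted p = 0.118) had the largest values among the synthetases and did not pass by edgeR, whereas DESeq2 called IARS1 (0.16, adjusted p = 0.0339). At an unadjusted p under 0.05, 11 members were higher and 2 lower, a count for which the share over all genes was not taken. ASNS, at 3.05, 2.89 and 3.01 CPM in the controls and 1.89, 2.69 and 3.15 CPM with OE, had a wide interval in HCT116 (log2 -0.21, 95% interval -0.70 to 0.29).

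No member passed in both lines by the edgeR test, and by DESeq2 IARS1 did. With the replicate number added to the edgeR fit as a block, 9 members did. Of these, DDIT4 and SLC38A2 were lower in HCT116 and higher in LoVo, and SLC7A5 was the reverse. IARS1, KARS1, MTHFD2, NARS1, SHMT2 and WARS1 were higher in both. With the block, 1322 of all genes were called in HCT116 and 5588 in LoVo, against 146 and 4278 without it. The share of all genes called in both lines was not taken. A fit over all 12 libraries tested the difference between lines of the change with more SLERT as labelled, OE minus control in HCT116 less control minus KD in LoVo, for which 0 means changes that mirror each other. In it 20 members were called, all 20 above 0, where 14.6% of 18199 genes were called, 6.94% above and 7.61% below 0. The value adds the change with OE to the change with KD, so the rises in LoVo described above also raise it. It is therefore no independent support for them, and it can lie above 0 where both lines moved the same way. The member median was 0.23, against -0.01 over all genes. ATF4 (0.26, SE 0.071, adjusted p = 0.0146) and IARS1 (0.48, SE 0.068, adjusted p = 1.53e-05) were among them, whereas DDIT3 (0.51, SE 0.23, adjusted p = 0.147) and ASNS (0.31, SE 0.27, adjusted p = 0.482) did not pass.

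The other genes of the pathway were taken as lists, also with earlier results known. Each gene counted once, 105 were tested in LoVo and 37.1% of them called, against 26.3% of all genes. Of 27 tested other ATF4 targets, 13 rose and 3 fell in LoVo with KD (median log2 0.24). ALDH1L2, a mitochondrial folate dehydrogenase, rose from 37.9, 37.5 and 37.4 to 73.5, 74.5 and 68.8 CPM (1.91-fold, log2 0.93, SE 0.072, edgeR adjusted p = 1.16e-09), more than any of the 42. NIBAN1, a stress-responsive survival protein, rose from 59.2, 65.2 and 69.5 to 108, 108 and 115 CPM (log2 0.77, adjusted p = 2.24e-08), and TRIB1, a relative of TRIB3, from 100.5, 98.8 and 95.0 to 132, 130.3 and 139.5 CPM (log2 0.44, adjusted p = 1.36e-05). The 3 that fell were BBC3, the death effector PUMA (log2 -0.46, adjusted p = 0.000293), SESN1 (-0.30, adjusted p = 0.0239), both also known as targets of p53, and GPT2, an alanine aminotransferase (-0.19, adjusted p = 0.0366). The call of SESN1 was lost without control 1 (-0.27), control 2 (-0.29) or KD 3 (-0.26), and that of GPT2 without control 1 (-0.17), control 3 (-0.17), KD 2 (-0.12) or KD 3 (-0.22).

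Upstream of ATF4, 3 of 14 genes (the 4 eIF2 kinases, the GCN2 activator GCN1, the 3 subunits of eIF2, the 5 of its exchange factor eIF2B, and the eIF2 phosphatase subunit PPP1R15B) rose and 0 fell (median 0.10). That share is near the 26.3% of all genes called in LoVo (12.6% higher). The 3 were the subunits of eIF2 itself. EIF2S3 stood at 336, 385 and 371 CPM in the LoVo controls and 466, 501 and 473 CPM with KD (log2 0.39, adjusted p = 3.86e-05). EIF2S2 (0.31, adjusted p = 0.00108) and EIF2S1 (0.22, adjusted p = 0.0321) rose with it, and the call of EIF2S1 was lost without control 1 (0.19), control 2 (0.23), control 3 (0.23), KD 2 (0.13) or KD 3 (0.23). Of 6 other cytosolic synthetase subunits and scaffolds, 2 rose, also near the 26.3% of all genes. These were AIMP1, a scaffold of the multi-synthetase complex (0.27, adjusted p = 0.00582), and FARSB, a phenylalanyl subunit (0.23, adjusted p = 0.0313). The call of FARSB was lost without control 1 (0.21), control 3 (0.21), KD 2 (0.14) or KD 3 (0.25). None of the 17 mitochondrial synthetases passed in LoVo by edgeR or by DESeq2, 2 were higher at an unadjusted p under 0.05, and their median was 0.05.

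Of 16 other transporters tested, 5 rose and 5 fell (median 0.16). SLC1A3, a glutamate and aspartate carrier, fell from 132, 132 and 132 to 66.4, 72.3 and 75.7 CPM (log2 -0.89, SE 0.066, adjusted p = 5.77e-10). SLC6A6, the taurine carrier, fell as well (-0.66, adjusted p = 2.4e-08), and SLC7A7, a carrier of cationic amino acids, rose from 65.4, 66.5 and 68.3 to 118, 103 and 113 CPM (0.73, adjusted p = 2.53e-08). Of 14 other serine, one-carbon and proline genes, 2 rose and 2 fell (median 0.10), a share near the 26.3% of all genes called in LoVo. Those that fell were ALDH1L1, the cytosolic relative of ALDH1L2 (-0.96, adjusted p = 0.000189), and the proline enzyme PYCR3 (-0.57, adjusted p = 0.000203). Of 15 chaperones and XBP1 targets of the endoplasmic reticulum, whose stress activates PERK, 6 rose and 2 fell (median 0.14): XBP1 (0.46, adjusted p = 4.81e-06) and HERPUD1 (0.37, adjusted p = 0.000417) were among those that rose, and CRELD2 (-0.44, adjusted p = 0.000341) and CALR, calreticulin (-0.23, adjusted p = 0.00201), fell. ALDH1L2, SLC7A11, SLC1A4 and MTHFD1L stand in more than 1 list.

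**Figure D3:**
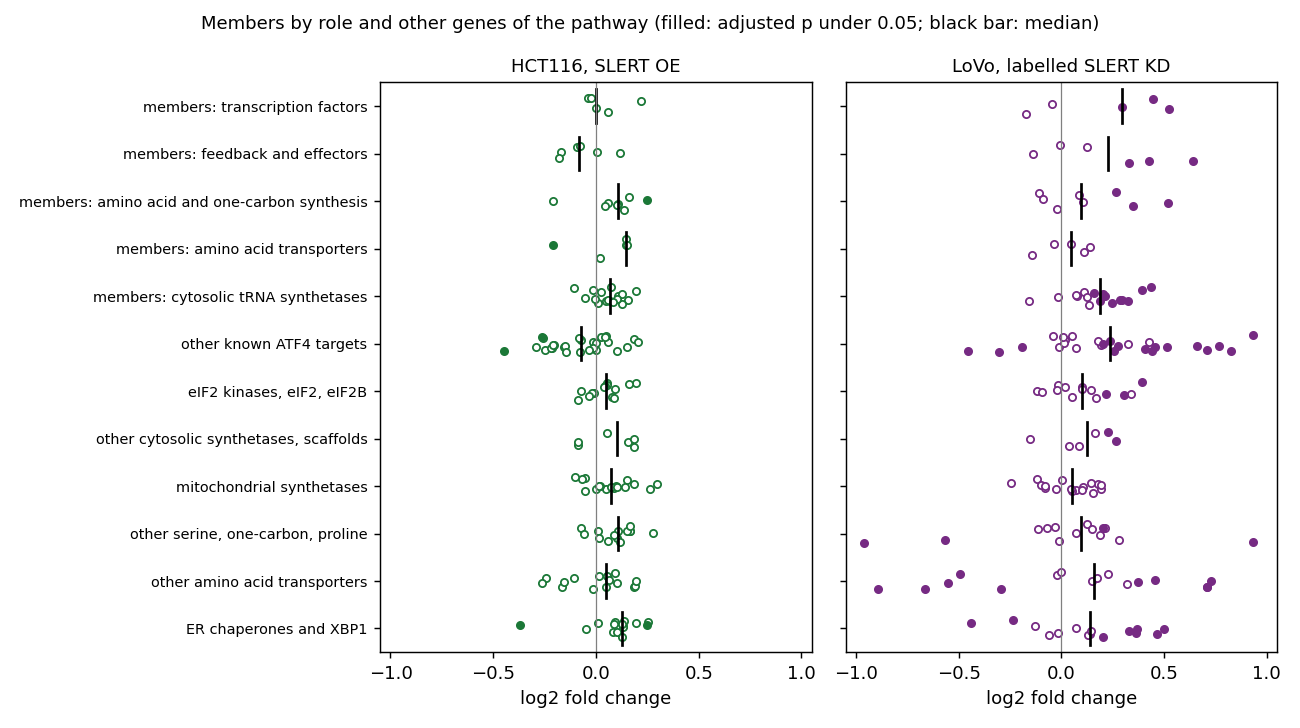
Log2 fold change of the tested members by role, and of each tested gene of the 7 further lists, in HCT116 (OE minus control) and LoVo (KD minus control). Points are filled where called, a black bar marks the median of each role or list, and a gene in more than 1 list is drawn in each. In LoVo other ATF4 targets have 16 filled points (13 higher, median 0.24), and mitochondrial synthetases have none.

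In HCT116 4 of the 105 genes tested from the same lists were called (3.81%), where 0.914% of all genes were. KLHL24 (log2 -0.45, edgeR adjusted p = 0.00775), an ATF4-responsive ubiquitin ligase adaptor, and TRIB1 (-0.26, adjusted p = 0.0116) fell among 28 other ATF4 targets (median -0.07). CALR rose (0.25, adjusted p = 0.00997) and EDEM1, which sorts misfolded glycoproteins for disposal, fell (-0.37, adjusted p = 0.0149) among 15 chaperones and XBP1 targets (median 0.13). All 4 calls were lost without control 2 (log2 -0.38, -0.27, 0.23 and -0.37 for KLHL24, TRIB1, CALR and EDEM1) or OE 3 (-0.37, -0.25, 0.24 and -0.32), and that of TRIB1 also without control 1 (-0.22) or OE 2 (-0.24). The lists of eIF2 (14 tested), other cytosolic synthetases (6), mitochondrial synthetases (17), serine and one-carbon genes (14) and transporters (15) held 0 edgeR calls, with medians of 0.05, 0.10, 0.07, 0.11 and 0.05. At an unadjusted p under 0.05 they held 1, 2, 2, 4 and 3 genes, and DESeq2 called 1 mitochondrial synthetase.

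The lines differed in most members before any manipulation. Between the LoVo and the HCT116 controls, 30 members were higher in LoVo and 8 lower, with a median log2 difference of 0.42, but the lines differ in most genes (79.0% of 17143 called, 39.0% higher and 39.9% lower in LoVo). Line and any batch of the lines cannot be told apart. The largest differences were in the effector and transcription factor groups: CHAC1 stood at 4.85, 4.70 and 3.84 CPM in HCT116 and 32.0, 30.1 and 32.6 CPM in LoVo (7.09-fold, log2 2.83, SE 0.12, edgeR adjusted p = 1.19e-19). DDIT3 (log2 2.31, SE 0.16) and TRIB3 (2.26, SE 0.059) followed, at 4.96-fold and 4.80-fold. PSAT1 (1.65), ATF5 (1.52), SESN2 (1.36), DDIT4 (1.36), PHGDH (1.34) and WARS1 (1.33) were next. SLC38A2 was the furthest the other way, at 887, 961 and 879.9 CPM in HCT116 and 384, 397 and 385 CPM in LoVo (log2 -1.22, SE 0.053). VARS1 (-0.83), RARS1 (-0.80), STC2 (-0.59), PYCR1 (-0.43), HARS1 (-0.38), KARS1 (-0.22) and LARS1 (-0.22) were also lower in LoVo, and EPRS1, IARS1 and QARS1 did not pass.

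Per length, ATF4 was the most abundant member in HCT116 controls (146 ± 4.04 FPKM, SD, n = 3), followed by SLC38A2 (136 ± 7.16 FPKM) and SLC7A5 (115 ± 6.31 FPKM). The SDs of ATF4 and SLC38A2 overlap, so their order is not settled. In LoVo controls SLC7A5 (257 ± 13.8 FPKM) and ATF4 (238 ± 5.15 FPKM) led, also with touching spreads, and PSAT1 came next at 167 ± 2.48 FPKM. In the KD libraries ATF4 led at 286 ± 9.46 FPKM, with SLC7A5 at 227 ± 22.1 FPKM. As counted, ASNS was the lowest tested member in every group, from 0.506 ± 0.122 FPKM in HCT116 OE to 1.87 ± 0.168 FPKM in LoVo KD. Another gene on the same strand overlaps 44.6% of its exonic length. How reads that fit both were counted is not known, so the level and rank of ASNS are uncertain. Synthetases in the KD libraries ran from 8.22 ± 0.241 FPKM for HARS1 to 99.3 ± 1.93 FPKM for TARS1.

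**Figure D4:**
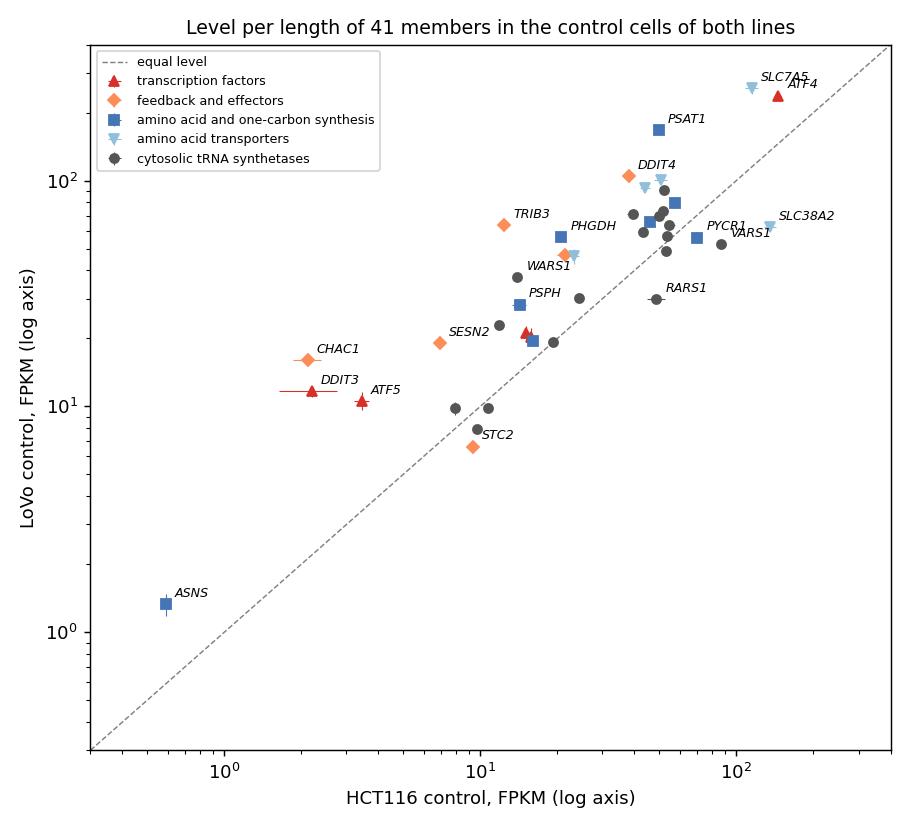
Mean FPKM of the 41 tested members in HCT116 controls (x) and LoVo controls (y), both axes logarithmic, bars ± SD over 3 libraries, colours by role, with the line of equal levels. Most points lie above the line, CHAC1 furthest (2.11 against 16.1 FPKM), and SLC38A2 lies below it (136 against 62.4 FPKM).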

How the data were processed

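RNA-seq reads of 12 libraries were mapped by the authors to GRCh38 with HISAT2 2.1.0 (per the submitters' processing notes). How reads were counted, on which annotation and whether by strand, is not given in the sources used here. The deposited counts are whole numbers for 62656 genes, with no normalisation. The deposited FPKM table holds 38828 genes, and each value equalled count over length and column total for 100% of genes, within 1e-06 of a ratio. Columns were mapped by heading, and the heading for vector, taken as HCT116 control, is the least certain.

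The members and lists were chosen with earlier results of these data known. Counts were tested with edgeR 4.0.16 in R 4.3.3 (TMM factors, filterByExpr, quasi-likelihood F test, two-sided, Benjamini-Hochberg adjustment over all genes tested, calls under 0.05), on the 6 libraries compared or, for the difference between lines, on all 12. The code was tested on simulated counts. CPM use TMM factors over 12 libraries. Pathway genes are named where they were among the 3 smallest p of the calls in a list and line, or were called against the direction of their list. Alternatives were DESeq2 1.42.0, RLE and upper quartile factors, no filter, 1 fit over 12 libraries, limma 3.58.1 on log2(FPKM + 1), a replicate block and leaving out each library. Symbols and exon overlaps come from GENCODE v29 and promoters from RefSeq (GRCh38.p14). LARS1, NUPR1, PSPH, PYCR1, SHMT2, VARS1 and YARS1 had no promoter entry.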

Additional observations from a re-analysis of the deposited data

Results flagged for a closer look

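The values below are the difference between the lines of the change with more SLERT as labelled (log2, from the edgeR fit over all 12 libraries), and each was called at an adjusted p under 0.05. In every case the change in HCT116 and the change in LoVo do not mirror each other in sign and size. These values add the change with OE to the change with KD. The LoVo changes above enter them, so they are no independent support.

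Among the regulators these were ATF4 (0.26), CEBPG (0.50), DDIT4 (0.47), TRIB3 (0.45) and PPP1R15A (0.35). Among the synthesis enzymes they were PSAT1 (0.33), PHGDH (0.41), SHMT2 (0.24) and MTHFD2 (0.42). The synthetases were AARS1 (0.29), EPRS1 (0.31), GARS1 (0.23), IARS1 (0.48), KARS1 (0.34), LARS1 (0.28), NARS1 (0.37), SARS1 (0.46), TARS1 (0.22), WARS1 (0.49) and YARS1 (0.21). The call of GARS1 was lost without HCT116 control 1 (0.23), OE 2 (0.23), LoVo control 3 (0.22) or KD 3 (0.23). That of TARS1 was lost without HCT116 control 1, OE 2, LoVo control 1, LoVo control 2 or KD 3 (0.21 to 0.23). That of SHMT2 was lost without HCT116 control 1 or 2, OE 1 or 3, LoVo control 2 or 3, or KD 1 or 3 (0.19 to 0.26), and that of YARS1 without any single library other than KD 1 (0.19 to 0.23).

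Among the other pathway genes they were the eIF2 subunits EIF2S1 (0.41), EIF2S2 (0.40) and EIF2S3 (0.45), ALDH1L2 (0.86), NIBAN1 (0.97), FARSB (0.38), AIMP1 (0.32), HERPUD1 (0.32) and XBP1 (0.55). Below 0 were BBC3 (-0.68), PYCR3 (-0.45), SLC1A3 (-0.88) and SLC6A6 (-0.82). The call of AIMP1 was lost without HCT116 control 1 or 3, OE 2, LoVo control 1 or 3, or KD 3 (0.28 to 0.31), that of HERPUD1 without HCT116 control 1, OE 2 or KD 3 (0.27 to 0.30), and that of PYCR3 without any single library other than OE 1 and KD 1 (-0.48 to -0.33).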

How the results depend on the processing

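The members called in HCT116 numbered 2 by the edgeR test, 3 by DESeq2 (IARS1 added), 1 with RLE factors, 1 in 1 fit over all 12 libraries and 0 by limma on log2(FPKM + 1), and ran from 0 (without control 1, control 2, OE 2 or OE 3) to 2 when a library was left out. The 19 members called in LoVo became 17 by limma (16 higher, 1 lower) and 14 (without control 3) to 23 (without KD 1). Those between the controls stayed at 38 or 39, and those for the difference between lines ran from 16 to 21. With the replicate number as a block, 12 members were called in HCT116 (10 higher, 2 lower), 27 in LoVo (24 higher, 3 lower), 39 between controls and 23 for the difference, and 9 members were called in both lines. Not all of the 9 moved the same way in both lines, and the share of all genes called in both was not taken. No label says that the numbers pair the libraries, and whether they do is not settled here. Deviations of same-numbered libraries correlated at 0.06 to 0.07 in HCT116, where each correlated best with its own number, and at 0.00 to 0.14 in LoVo, where control 3 did not. Between the controls of the 2 lines they correlated at 0.01 to 0.09, each best with its own number.

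Over all genes, the 146 called in HCT116 (81 higher, 65 lower) became 59 higher and 82 lower with upper quartile factors, 48 and 61 in 1 fit over 12 libraries, 160 and 96 by DESeq2 and also without a filter, 4 and 3 by limma, and 817 and 505 with the block. They ran from 37 (without control 1 or OE 3) to 287 (without control 3). The 4278 called in LoVo (2050 higher, 2228 lower) became 966 and 1879 by limma, 2809 without control 1 and 2769 without control 3. For the difference, 1263 higher and 1385 lower became 691 and 1516 by limma and 2030 and 1985 with the block.

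Among the members, within each line and between the controls, signs turned only among log2 fold changes near 0 that passed no test. Pathway genes and differences between lines that were not called by the main edgeR fit are not included in that statement. Of these, SLC7A7 in the difference between lines ran from -0.38 to 0.57 over the settings and was called by limma alone. In HCT116, AARS1 (0.0078) was -0.0048 with upper quartile factors, -0.00056 in 1 fit and -0.014 by limma, CEBPB (0.0025) was -0.010, -0.0061 and -0.020, STC2 (0.0060) was -0.0068, -0.0026 and -0.014, and MARS1 (-0.0026) was 0.0029 without a filter. Between controls, EPRS1 (-0.019) was 0.017 with upper quartile factors and 0.075 by limma, and IARS1 (-0.080) was 0.015 by limma. When libraries were left out, values in HCT116 ran from -0.018 to 0.028 for AARS1, -0.057 to 0.041 for CEBPB, -0.068 to 0.0031 for CEBPG, -0.046 to 0.29 for DDIT3, -0.036 to 0.037 for MARS1, -0.0096 to 0.092 for PSPH, -0.060 to 0.025 for QARS1, -0.011 to 0.048 for SLC7A1 and -0.023 to 0.036 for STC2. In LoVo they ran from -0.18 to 0.093 for CEBPB, -0.064 to 0.017 for PSPH, -0.16 to 0.019 for PYCR1, -0.074 to 0.027 for QARS1, -0.0029 to 0.088 for SLC1A5, -0.077 to 0.0067 for SLC3A2 and -0.040 to 0.024 for STC2, and between controls from -0.045 to 0.020 for EPRS1. The causes were not tested. ASNS, CHAC1 and DDIT3 had few counts in HCT116 (30 to 51, 54 to 81 and 42 to 60 per library), and their SEs there were 0.24, 0.19 and 0.24. Whether depth sets these SEs was not tested.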
